A study of Mus musculus with 6 samples.

Results

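Pyruvate carriers, the pyruvate dehydrogenase complex with its kinases and phosphatases, the enzymes of the tricarboxylic acid (TCA) cycle and the enzymes that feed or drain it were examined in pancreatic stellate cells (PSCs), which can become cancer-associated fibroblasts. They were chosen by function, as 36 named mouse genes, with earlier results of these data known. All 36 were found among the 55426 features of the deposited table. The RNA came from primary PSCs of wild-type C57/BL6 mice, embedded in Matrigel in a transwell insert above organoids of mT3, a line from a pancreatic tumor of a genetically engineered mouse whose tumor alleles are switched on by Pdx1-Cre. The PSC lines came from digested pancreas by density gradient and were used at low passage, so other cells of the organ could be carried along. The cocultures were kept for 48 h at 21% oxygen (normoxia, 3 samples) or 1% oxygen (hypoxia, 3 samples), and all 6 samples therefore carry the influence of the tumor organoids. Which PSC line, mouse or culture gave each sample is not stated, so p-values measure the spread between these samples, which may be technical. All tumor material came from a single line.

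Pyruvate made by glycolysis enters mitochondria through a carrier built from MPC1 and MPC2, and the pyruvate dehydrogenase complex turns it into acetyl-CoA. Kinases (PDK1 to PDK4) switch the complex off by phosphorylation and phosphatases switch it on again. Citrate synthase then joins acetyl-CoA to oxaloacetate, and the cycle oxidizes the product while it also supplies citrate, aspartate and glutamate for biosynthesis. PDK1 is a classic target of hypoxia-inducible factors, which bind DNA at a short core sequence. Fibroblasts can use glutamine as an alternative fuel of the cycle.

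The normoxic samples held from 24749601 to 25914892 counts and the hypoxic samples from 25847719 to 31925054. Of the 12 markers fixed for fibroblasts or stellate cells, 11 were measurable, and their summed level was 28437 to 35637 CPM, the usual count scaled to library size, in normoxia and 30469 to 35314 in hypoxia. Most of that sum was Col1a1, Col1a2 and Col3a1, with log2 fold changes of 0.03, -0.46 and 0.19, so it says little about the other markers. Gfap, a marker of quiescent stellate cells, had 3 counts in normoxic replicate 1 and 0 in the other samples. The defining epithelial marker Epcam had 1 count in normoxic replicate 1 and 0 elsewhere, while the 8 epithelial markers summed to 3.23 to 5.31 CPM in normoxia and 25.0 to 28.9 in hypoxia, where Krt19 alone was called higher. All 7 genes of a hypoxia check list were called higher at 1% oxygen. Of the fibroblast markers Pdgfra (log2 fold change 0.82) and Pdpn (0.99) were called higher, and Lum (-2.17) and Thy1 (-1.0) lower. Marker sums of the other cell types listed were also apart between the groups. The 10 adipogenic markers were all called lower, from a summed 5641 to 7612 CPM to between 3300 and 3628. Most of that sum was Lpl, which fell least (log2 fold change -0.62), and the other 9 summed to 1078 to 2325 CPM in normoxia and 166 to 215 in hypoxia, with log2 fold changes from -6.09 to -2.0. Among macrophage markers, 7 of 11 were called lower, and their sum went from 932 to 1654 CPM to between 477 and 848. In the adipogenic and macrophage lists normoxic replicate 2 was the highest sample. The 4 endothelial markers summed to 8.62 to 13.3 CPM in normoxia and 13.7 to 19.8 in hypoxia, with Tek called higher (1.16) and Kdr lower (-0.76). The acinar sum of 10.1 to 12.4 CPM in normoxia and 8.23 to 9.33 in hypoxia was nearly all Cela1, which was not called (log2 fold change -0.33). Of the other acinar markers Cel had 1 count in each of 2 samples, and Prss2, Cpa1 and Amy2a5 were at 0 throughout. The part of these cell types in the results below was not tested, and in bulk RNA fewer cells of a type cannot be told apart from less RNA per cell.

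Most of the enzymes were lower in hypoxic PSCs. Calls required a linear fold change beyond 1.5 together with a Benjamini-Hochberg adjusted p under 0.05 over the 16207 genes that had enough counts, from the quasi-likelihood test of edgeR. Of the 35 member genes that passed this count filter, 19 were called lower and 2, Pdk1 and Me2, were called higher. Over all tested genes, 15.3% were called lower, 18.9% higher and 34.2% either way. Without the fold threshold 28 members passed as lower and 4 as higher, against 31% and 31.8% of all tested genes, 62.7% in all. The median log2 fold change was -0.64 for the members and -0.0040 for all tested genes. In 32 of the 35 members no hypoxic sample lay within the range of the normoxic samples, and 28 of these lay below it. Of all tested genes 68.9% had groups apart, 34% with hypoxia lower and 34.9% with hypoxia higher. The malic enzyme gene Me3 was too low to be tested, with 10 counts in each normoxic sample and 4, 11 and 3 in the hypoxic samples.

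**Figure D1:**
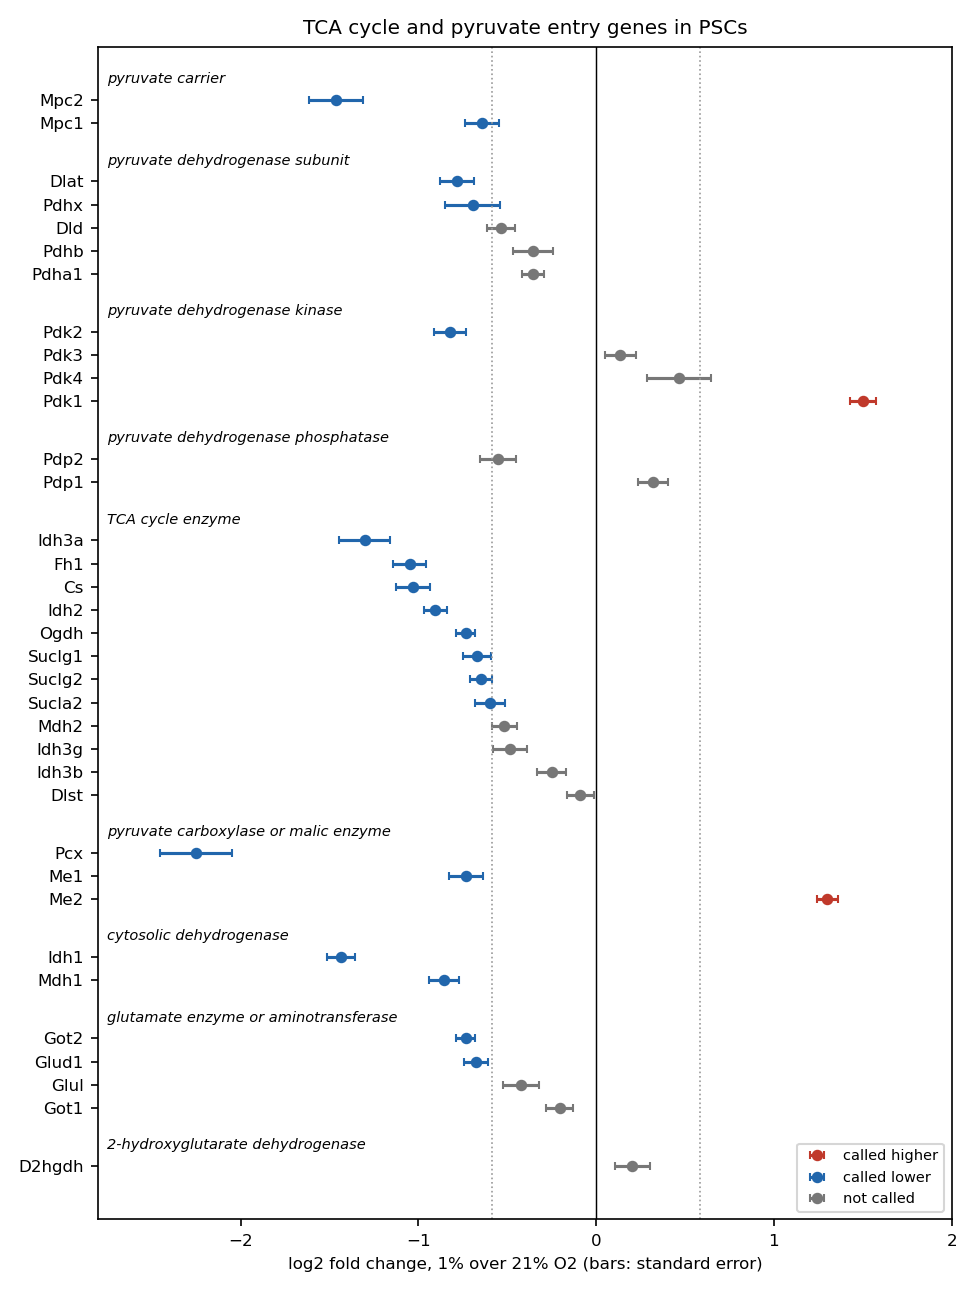
Log2 fold change of each tested member gene at 1% over 21% oxygen (horizontal axis), grouped by role; points are edgeR estimates, bars are standard errors and dotted lines mark a linear fold change of 1.5. Members called lower (blue) number 19, those called higher (red) are Pdk1 at 1.5 and Me2 at 1.3, and the lowest is Pcx at -2.25.

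**Figure D2:**
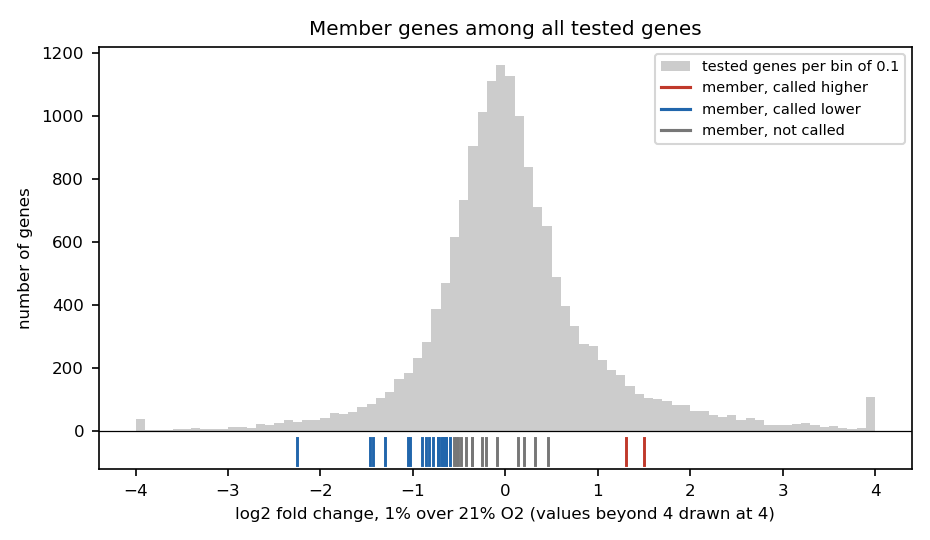
Distribution of the log2 fold changes of all 16207 tested genes (grey bars, number of genes per bin of 0.1), with each tested member gene drawn as a tick under it, coloured by its call. Most ticks lie left of 0, where 29 of the 35 members fall.

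Normoxic replicate 2 was the highest of the normoxic samples for 29 of the 35 members, against 43.1% of all tested genes. Among genes called lower it was highest for 18 of the 19 members and for 58.7% of all such genes. The members differed little between hypoxic samples, with a median coefficient of variation of 3.64%, and more between normoxic samples, with 10.9% (all tested genes, 6.95% and 8.76%). In hypoxia and normoxia, members called lower had 3.27% and 12.1%, and all genes called lower had 11.2% and 11.9%. Without normoxic replicate 2, 16 members were called lower and 3 higher. Mpc1, Pdhx and Sucla2 then missed the fold threshold and Pdk4 passed it.

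**Figure D3:**
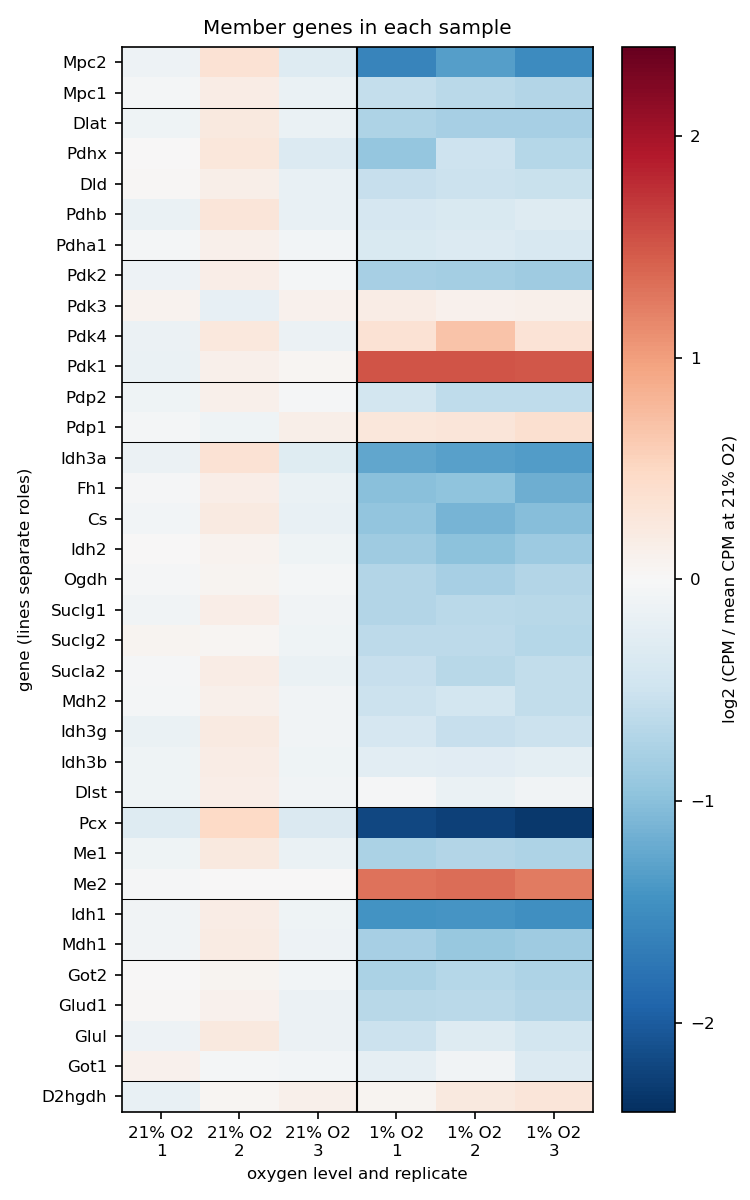
Level of each of the 35 tested member genes (rows, separated by role) in each of the 6 samples (columns), as the log2 ratio of its CPM to the gene's mean at 21% oxygen. Blue fills most hypoxic columns, while Pdk1 and Me2 are the darkest red rows there, and normoxic replicate 2 is mostly the reddest of the normoxic columns.

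Both genes of the pyruvate carrier fell. Mpc2 was at 57.6, 79.2 and 50.3 CPM in normoxic replicates 1, 2 and 3 and at 20.9, 24.9 and 22.0 CPM in hypoxic replicates 1, 2 and 3. The groups were far apart, and its log2 fold change was -1.46 ± 0.15 (SE; edgeR adjusted p = 4.14e-05). Its partner Mpc1 was at 24.9, 29.3 and 23.1 CPM in normoxia and at 17.4, 16.5 and 15.7 CPM in hypoxia, also without overlap. Its log2 fold change was -0.64 ± 0.10 (SE; edgeR adjusted p = 0.000383). A ratio of both within a library does not depend on how libraries are scaled. Mpc1 had 0.421 ± 0.0454 counts per count of Mpc2 in normoxia and 0.737 ± 0.0872 in hypoxia (mean ± SD, n = 3 per group). RNA of 4930506C21Rik, annotated on the other strand, overlaps 23.1% of the exon bases of Mpc1, and the strand setting of the counting is not given in the sources used here.

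All 5 genes of the pyruvate dehydrogenase complex had negative log2 fold changes, and 2 of them were called lower. Dlat encodes the E2 acetyltransferase core, and its level went from 97.0, 122 and 93.3 CPM to 62.0, 59.9 and 60.1 CPM. Every hypoxic sample was below every normoxic one, with a log2 fold change of -0.78 ± 0.10 (SE; edgeR adjusted p = 0.000108). Pdhx, the protein that tethers E3 to that core, fell from 22.9 ± 4.59 to 14.1 ± 2.12 CPM (mean ± SD, n = 3 per group), a log2 fold change of -0.69. Dld, the E3 subunit shared with the oxoglutarate complex, had a log2 fold change of -0.53. The E1 subunit genes Pdha1 and Pdhb stood at -0.36 each, with adjusted p of 0.000915 and 0.0209 from edgeR, and did not reach the fold threshold. Pdhb stood at -0.19 without normoxic replicate 2, and its edgeR adjusted p was 0.0540 to 0.0623 when any 1 hypoxic sample was left out. Pdha1 went from 189, 212 and 186 CPM to 152, 156 and 150.2 CPM, and Map3k15 on the other strand overlaps 16.2% of its exon bases. Per count of Pdha1 there were 0.514, 0.578 and 0.502 counts of Dlat in normoxia and 0.407, 0.384 and 0.400 in hypoxia. This ratio was chosen after the values were seen and was not tested.

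Among the 4 kinases that switch the complex off, Pdk1 rose and Pdk2 fell. Pdk1 (ENSMUSG00000006494) lies on the plus strand of chromosome 2, bases 71873224 to 71903858 in GRCm38. Its level was 94.6, 115 and 109 CPM in normoxia and 301, 304 and 299 CPM in hypoxia. Its 3 hypoxic samples were nearly level and far above the normoxic ones, with a fold of 2.83, a log2 fold change of 1.5 ± 0.07 (SE; edgeR adjusted p = 4.69e-07). Pdk2, the kinase found in most tissues, went from 21.2, 25.9 and 22.4 CPM to 13.3, 13.2 and 12.9 CPM, a log2 fold change of -0.82 ± 0.09 (SE; edgeR adjusted p = 5.13e-05). Pdk3 stood at 25.3, 20.9 and 25.8 CPM in normoxia and at 27.1, 25.8 and 26.3 CPM in hypoxia. These ranges overlapped, and its log2 fold change of 0.14 ± 0.09 (SE) did not pass the test, with an edgeR adjusted p of 0.197. With any 1 sample left out it ran from 0.04 to 0.19. Pdk4, which is known for its response to fasting and fatty acids, was lowest of the kinases at 3.32 ± 0.545 and 4.58 ± 0.676 CPM (mean ± SD, n = 3 per group). Its log2 fold change of 0.47 had an edgeR adjusted p of 0.0458 and lay under the fold threshold.

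Levels were divided by the merged length of all annotated exons of a gene. Genes are compared only roughly in this way, because the isoforms used are not known. By that measure Pdk1 made up 41.1%, 45.9% and 43.8% of the kinase level in normoxic replicates 1, 2 and 3. In the hypoxic replicates it made up 70.8%, 71.2% and 71.2%. The share of Pdk2 went from 23.4 ± 1.77% to 7.62 ± 0.0838% and that of Pdk3 from 30.0 ± 4.24% to 18.9 ± 0.502% (mean ± SD, n = 3 per group). Pdk4 held 3.01 ± 0.422% and 2.39 ± 0.339%. For Pdk1, Pdk2 and Pdk3 the exact two-sided permutation p was 0.1, the smallest that 3 samples against 3 can give, and for Pdk4 it was 0.2. The summed level of the kinases was 31.3 ± 1.48 CPM per kilobase in normoxia and 54.5 ± 0.460 in hypoxia (mean ± SD, n = 3 per group; exact permutation p = 0.1). Within libraries there were 4.46, 4.44 and 4.88 counts of Pdk1 per count of Pdk2 in normoxia and 22.6, 23.0 and 23.3 in hypoxia.

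Neither phosphatase gene reached the fold threshold. Pdp1, the calcium-dependent phosphatase, went from 15.7, 15 and 17.8 CPM to 19.6, 19.9 and 21.1 CPM, a log2 fold change of 0.32 ± 0.08 (SE; edgeR adjusted p = 0.00848). Pdp2, the phosphatase under insulin control, was on the opposite side of 0, with 11.7, 13.7 and 12.3 CPM in normoxia and 9.23, 8.30 and 8.23 CPM in hypoxia. Its log2 fold change was -0.55 ± 0.10 (SE; edgeR adjusted p = 0.00118). There were 6.60 ± 0.915 counts of Pdk1 per count of Pdp1 in normoxia and 14.9 ± 0.662 in hypoxia (mean ± SD, n = 3 per group).

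**Figure D4:**
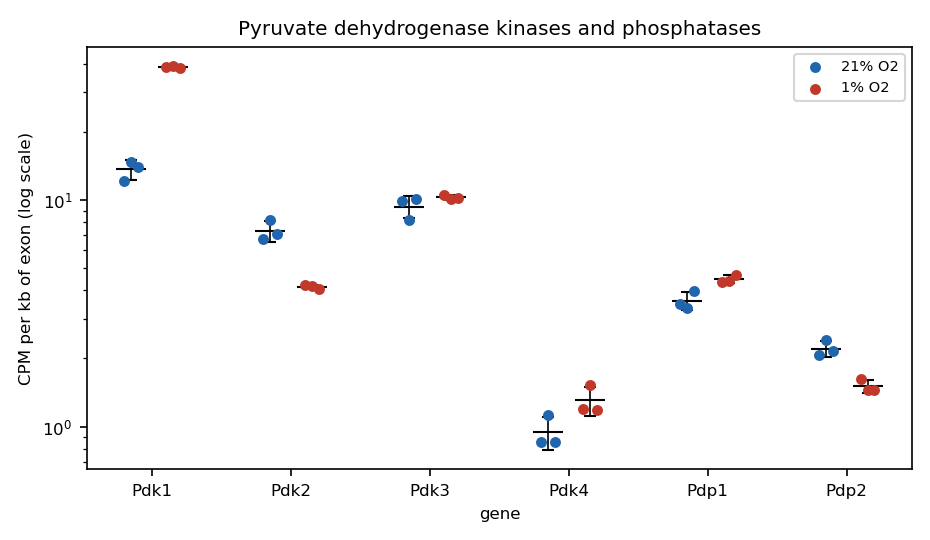
Level of the pyruvate dehydrogenase kinases and phosphatases in each sample, in CPM per kilobase of exon on a log axis; points are samples, horizontal bars are group means and error bars are SD (n = 3 each). Pdk1 lies highest in both groups, at a mean of 13.7 in normoxia and 38.7 in hypoxia, and Pdk4 lowest, at 0.945 and 1.3.

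The DNA before the starts of Pdk1 and Pcx is shown because they had the largest rise and the largest fall of the called members. Both stretches are the 250 bases upstream of the RefSeq start nearest the annotated gene start, on GRCm38.p6 and the plus strand, chr2:71872974-71873223 for Pdk1 and chr19:4510222-4510471 for Pcx. Capitals mark the cores ACGTG and GCGTG of the hypoxia response element, searched on both strands.
Pdk1: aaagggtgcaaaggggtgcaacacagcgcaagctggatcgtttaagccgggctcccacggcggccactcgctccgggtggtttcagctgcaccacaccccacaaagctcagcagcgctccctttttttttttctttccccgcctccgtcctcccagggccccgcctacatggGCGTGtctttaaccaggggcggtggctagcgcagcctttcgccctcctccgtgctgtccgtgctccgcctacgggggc
Pcx: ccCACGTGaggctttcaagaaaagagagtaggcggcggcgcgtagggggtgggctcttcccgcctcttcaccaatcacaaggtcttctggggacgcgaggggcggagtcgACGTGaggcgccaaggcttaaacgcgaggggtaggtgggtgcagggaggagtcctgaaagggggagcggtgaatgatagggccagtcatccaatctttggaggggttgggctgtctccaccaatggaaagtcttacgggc
Pdk1 had 1 match, GCGTG beginning at position -78 with the last base before the start counted as -1. Pcx had 3 matches to ACGTG, between -248 and -140, of which the first 2 overlap as opposite strands of CACGTG, a sequence also known as an E-box. A core was present before at least 1 start of 24 of the 33 members found in the promoter table, and of 14 of the 18 found among those called lower. The same held for 60.1% of the tested genes in that table, and 38.6% of all its promoters had a core. By call, the shares were 52.6% of tested genes called lower, 58.7% of those called higher and 62.1% of those not called. Pdk1 and Pcx each have 2 starts in the table, and gene counts do not tell which was used. A match describes the letters and is not evidence of binding.

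Every one of the 12 genes for enzymes of the cycle inside mitochondria had a negative log2 fold change, and 8 of them were called lower. Cs, citrate synthase, which starts the cycle, was at 206, 249 and 189 CPM in normoxia and at 111, 99.2 and 105 CPM in hypoxia. Its groups did not overlap, and its log2 fold change was -1.03 ± 0.10 (SE; edgeR adjusted p = 2.22e-05). Fh1, fumarase, went from 64.0, 72.8 and 57.8 CPM to 32.4, 33.0 and 28.7 CPM, a log2 fold change of -1.05 ± 0.09 (SE; edgeR adjusted p = 1.38e-05). Idh2, the NADP-dependent isocitrate dehydrogenase of mitochondria, had a log2 fold change of -0.90. The 3 genes of succinyl-CoA ligase lay close together, with Suclg1 at -0.67, Suclg2 at -0.65 and Sucla2 at -0.60. Sucla2, the subunit of the ADP-forming enzyme, was the called member nearest the fold threshold. Mdh2, malate dehydrogenase of mitochondria, had a log2 fold change of -0.52 and did not reach the threshold.

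The subunits of single complexes did not all have the same change. The NAD-dependent isocitrate dehydrogenase is built from the products of Idh3a, Idh3b and Idh3g. Idh3a, the catalytic subunit, went from 69.0, 96.3 and 62.2 CPM to 31.8, 30.7 and 29.8 CPM, a log2 fold change of -1.3 ± 0.14 (SE; edgeR adjusted p = 5.31e-05). For the other subunits the log2 fold changes were -0.48 for Idh3g and -0.25 for Idh3b, neither past the fold threshold. Per count of Idh3b there were 0.633, 0.726 and 0.576 counts of Idh3a in normoxia and 0.326, 0.317 and 0.30 in hypoxia. In the oxoglutarate dehydrogenase complex, the E1 gene Ogdh fell from 164, 175 and 163 CPM to 103, 97.1 and 102 CPM, with a log2 fold change of -0.73 ± 0.05 (SE; edgeR adjusted p = 5.2e-06). Its E2 partner Dlst was at 126, 151 and 128 CPM in normoxia and at 133, 121 and 127 CPM in hypoxia. These ranges overlapped, and the log2 fold change of -0.09 ± 0.08 (SE) had an edgeR adjusted p of 0.340. Without normoxic replicate 2 the log2 fold change of Dlst stood at -0.0059. The count ratio of Ogdh to Dlst was 1.25 ± 0.0758 in normoxia and 0.796 ± 0.0177 in hypoxia (mean ± SD, n = 3 per group). Both ratios were chosen after the values were seen and are given as descriptions.

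Pyruvate carboxylase and the malic enzymes, which link pyruvate to oxaloacetate and malate, included the lowest log2 fold change of the members, that of Pcx. Pcx (ENSMUSG00000024892) makes oxaloacetate from pyruvate and lies on the plus strand of chromosome 19, bases 4510472 to 4621752 in GRCm38. It was at 114, 198 and 112 CPM in normoxia and at 30.9, 29.9 and 28.2 CPM in hypoxia, with normoxic replicate 2 far above the other normoxic samples. Its log2 fold change was -2.25 ± 0.20 (SE; edgeR adjusted p = 1.76e-05) and -1.93 without that sample. Normoxic replicate 2 also stood out in the adipogenic markers other than Lpl, which summed to 1147, 2325 and 1078 CPM in normoxia and to 172, 215 and 166 CPM in hypoxia. Within that list Fabp4, named after its values were seen, was at 432, 1076 and 410 CPM in normoxia and at 49.8, 62.5 and 50.8 CPM in hypoxia. Their part in the fall of Pcx was not tested. Per count of Pdha1, the entry by the other route, there were 0.606, 0.934 and 0.600 counts of Pcx in normoxia and 0.203, 0.192 and 0.188 in hypoxia. Me1, the cytosolic malic enzyme that yields NADPH for lipid synthesis, fell from 115, 145 and 111 CPM to 73.2, 75.9 and 73.8 CPM, a log2 fold change of -0.73 ± 0.09 (SE; edgeR adjusted p = 0.000145). Me2, the NAD-dependent malic enzyme of mitochondria, moved the other way. It rose from 19.0, 19.4 and 19.5 CPM to 47.6, 49.1 and 45.9 CPM, a log2 fold change of 1.3 ± 0.06 (SE; edgeR adjusted p = 2.63e-07). Counts of Me1 per count of Me2 were 6.04, 7.47 and 5.69 in normoxia and 1.54, 1.55 and 1.61 in hypoxia.

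Enzymes of the cytosol with a mitochondrial counterpart were compared by their ratio within each library. Idh1, the cytosolic NADP-dependent isocitrate dehydrogenase, was the member with the highest level per kilobase in both groups, at 136 and 50.3 CPM per kilobase. It fell from 358, 425 and 349 CPM to 140.4, 142 and 136 CPM, with a log2 fold change of -1.44 ± 0.08 (SE; edgeR adjusted p = 9.02e-07). Counts of Idh1 per count of Idh2 were 3.37, 3.81 and 3.54 in normoxia and 2.42, 2.66 and 2.36 in hypoxia. Mdh1, the cytosolic malate dehydrogenase, had a log2 fold change of -0.86, and its counts per count of Mdh2 went from 0.814 ± 0.0349 to 0.646 ± 0.0464 (mean ± SD, n = 3 per group). The aspartate aminotransferases showed the opposite order. Got1, the cytosolic form, was at 47.1 ± 3.02 and 40.9 ± 3.31 CPM, a log2 fold change of -0.21 that did not reach the fold threshold, whereas Got2, the mitochondrial form, fell from 159 ± 6.63 to 95.8 ± 2.41 CPM (mean ± SD, n = 3 per group), a log2 fold change of -0.73. Counts of Got1 per count of Got2 went from 0.318, 0.276 and 0.297 to 0.432, 0.450 and 0.398. Levels per kilobase of merged exons, a rough measure between genes, rank Pdha1 second in both groups. By them Pdk1 moved from rank 23 to rank 3 of the 36 members.

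Glutamate enzymes connect the cycle with glutamine. Glud1, glutamate dehydrogenase, which makes oxoglutarate from glutamate, fell from 176, 187 and 156 CPM to 109, 109.7 and 106 CPM, a log2 fold change of -0.68 ± 0.07 (SE; edgeR adjusted p = 3.43e-05). Glul, glutamine synthetase, was at 144, 183 and 142 CPM in normoxia and at 109, 125 and 116 CPM in hypoxia. Its groups were apart, and the log2 fold change of -0.42 ± 0.10 (SE; edgeR adjusted p = 0.00506) was within the fold threshold. D2hgdh, which oxidizes the D form of 2-hydroxyglutarate to oxoglutarate, was at 15.8, 18.6 and 19.4 CPM in normoxia and at 18.8, 21.3 and 21.9 CPM in hypoxia. These ranges overlapped, and the log2 fold change was 0.20 ± 0.10 (SE; edgeR adjusted p = 0.0954).

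A list of 10 pairs of members was written with earlier results of these data known. Their log2 count ratios were compared with the exact two-sided permutation test over samples and Benjamini-Hochberg adjustment over the 10. The groups did not overlap in 9 of them, each with p = 0.1, the smallest this design allows, and an adjusted p of 0.111 by this exact test. None could therefore pass a threshold of 0.05. For single genes the groups were apart in 68.9% of all tested genes. From the largest fall to the largest rise, the differences in mean log2 ratio were -2.02 for Me1/Me2, -1.84 for Pcx/Pdha1, -0.53 for Idh1/Idh2 and -0.34 for Mdh1/Mdh2. On the other side were 0.26 for Glul/Glud1, 0.53 for Got1/Got2, 0.81 for Mpc1/Mpc2, 1.18 for Pdk1/Pdp1 and 2.32 for Pdk1/Pdk2. Sucla2/Suclg2, the pair of alternative succinyl-CoA ligase subunits, had overlapping groups, with log2 ratios of 0.46, 0.68 and 0.48 in normoxia and 0.62, 0.51 and 0.65 in hypoxia (exact permutation p = 0.7).

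**Figure D5:**
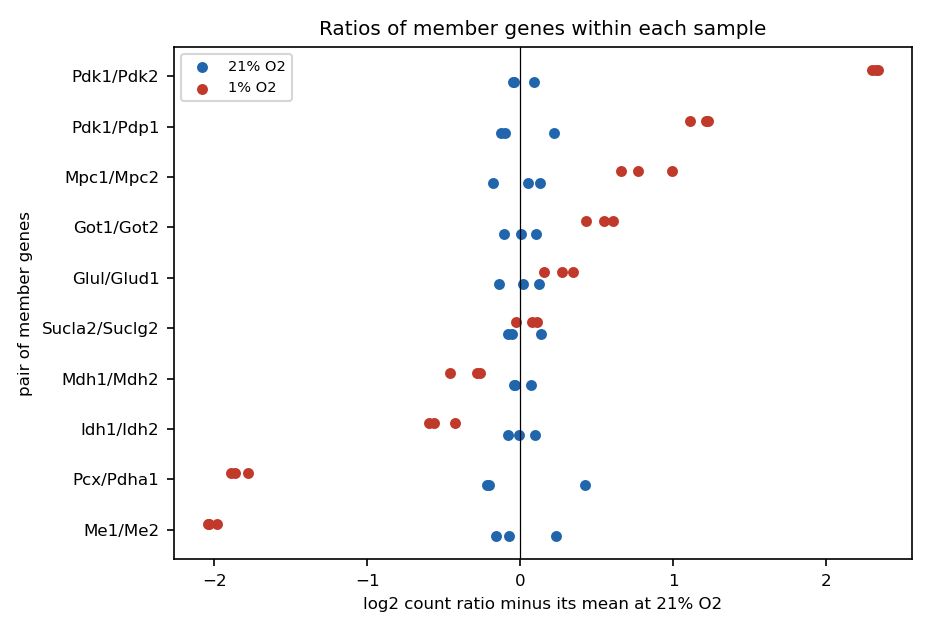
Log2 count ratio of 10 pairs of member genes in each sample (horizontal axis), drawn as the difference from the pair's mean at 21% oxygen; each point is 1 sample. The hypoxic points of Pdk1/Pdk2 lie near 2.32 and those of Me1/Me2 near -2.02, and the groups overlap for Sucla2/Suclg2.

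Other genes of the pathway, 33 in a list by function, had 32 tested members, of which 12 were called lower and 5 higher, with a median log2 fold change of -0.50. Over all tested genes the shares were 15.3% lower and 18.9% higher. Its group of 8 cycle and related dehydrogenase genes had negative values throughout, and 5 were called lower. Aco1, the aconitase of the cytosol, had a log2 fold change of -0.87. The succinate dehydrogenase genes lay between -0.55 for Sdhc and -0.86 for Sdhb. Gls2, a glutaminase best known from liver that releases glutamate from glutamine, had 16, 35 and 21 counts in normoxia and 312, 430 and 377 in hypoxia. It rose by a log2 fold change of 3.75 ± 0.21 (SE; edgeR adjusted p = 1.04e-06), from 0.268 to 3.63 CPM per kilobase. Of the genes that take pyruvate to lactate and out of the cell, Ldha (1.03), Slc16a3 (2.11) and Slc16a1 (0.69) were called higher by the log2 fold changes given, and Ldhb, whose isoform favors the reverse reaction, fell from 59.0, 81.3 and 55.4 CPM to 13.5, 20.5 and 14.8 CPM.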

How the data were processed

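Poly(A) RNA of 6 PSC samples (3 per oxygen level) was sequenced. According to the study's methods, the authors trimmed reads with Cutadapt, aligned the rest to GRCm38 by STAR and had RSEM estimate the counts of each gene, given as versions 2.6.1b and 1.3.1 in the submitters' processing notes. The authors deposited expected counts, not normalized between samples, for 55426 features, 5 of them transgenes. All values were whole, with 0 fractions, so rounding changed nothing. RSEM divides reads shared by near-identical genes by an estimate. The annotation release and strand setting are not given in the sources used here. Symbols, positions and exon lengths, with all annotated exons of a gene merged, came from GENCODE M21 on GRCm38, which held 55240 of the identifiers. Promoter sequences came from RefSeq on GRCm38.p6, which held 33 of the 36 members.

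edgeR 4.0.16 (R 4.3.3) was used with filterByExpr, which kept 16207 genes, TMM scaling and the quasi-likelihood test with Benjamini-Hochberg adjustment. Calls needed a fold change over 1.5 and an adjusted p under 0.05, the thresholds of the study's methods, whose tool DESeq2 (1.42.0) was an alternative. The standard error (SE) is the size of the log2 fold change over the square root of the F statistic. CPM use TMM-scaled library totals, at which 3 counts equal 0.0943 to 0.122 CPM. That floor covers counting error only. Replicates of a group differed by a chi-square of 5.68 to 22.5 per degree of freedom, more than sampling noise, and each was counted as 1 sample. The fits were tested on simulated data with known changes. All 36 members are named, and some other pathway genes are not reported here. The other pathway genes, pairs, markers and promoters follow lists written for this work, and 4 count ratios were added after their values were seen. The members and lists were chosen with earlier results of these data known. Alternatives were other scalings and filters, DESeq2, limma-voom (limma 3.58.1), the replicate block, corrections for GC content and exon length, other fold thresholds and leaving out each sample.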

Additional observations from a re-analysis of the deposited data

How the results depend on the processing

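No log2 fold change of a member, ratio of 2 members or kinase share changed direction under any alternative run. Of 630 refits of single members, 619 kept their side of the threshold, 6 lost a call and 5 gained one. The calls lost were those of Mpc1 and Pdhx without normoxic replicate 2, and of Sucla2 with the GC correction (with and without the block), without normoxic replicate 2 and without hypoxic replicate 2. The calls gained were those of Dld without normoxic replicate 3, Pdk4 without normoxic replicate 2, and Pdp2 with the length correction, without hypoxic replicate 1 and without normoxic replicate 1. Whatever the fold, the adjusted p crossed 0.05 in 10 of 18 alternatives for Pdk4 (range 0.0154 to 0.173), 8 for Got1 (0.0158 to 0.136), and 3 each for Idh3b (0.00522 to 0.0619) and Pdhb (0.00165 to 0.0623). Idh3b stood at -0.15 without normoxic replicate 2. Of the other pathway genes called, Gpt lost its call without normoxic replicate 1, Slc25a13 without normoxic replicate 3, and Acss2 without normoxic replicate 2 and with the block in DESeq2. The counts of calls depended most on the fold threshold. With a fold over 2, 1929 genes were called higher and 1227 lower, 6 members lower, and 3 other pathway genes higher and 5 lower. With no fold threshold, 5150 genes were higher and 5018 lower, 4 members higher, and 20 other pathway genes lower. In the other alternatives the members called lower ran from 16 to 20. Without the correction for exon length, the kinase shares of Pdk1 and Pdk2 changed by 19.5 and -11.0 percentage points in place of 27.5 and -15.8.

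The groups share replicate numbers, but nothing in the labels says that a number marks a shared culture. Across 16207 genes, the deviations of samples with number 1, 2 and 3 from their group's mean correlated between groups at 0.14, 0.14 and 0.04. In 6 of 6 samples the correlation was best with their own number. These 6 outcomes share the same few correlations and are not independent, so they are only a weak hint from the data. With the replicate block, 3072 genes were called higher and 2500 lower against 3068 and 2479 without it. The counts with the block were 2 and 19 for the members and 5 and 12 for the other pathway genes, and the block changed no call of a member. D2hgdh, under the fold threshold in each fit, had an edgeR adjusted p of 0.0954 without the block and 0.0310 with it. Over its alternatives that p ran from 0.0169, with the block and the GC correction, to 0.313, without normoxic replicate 1. The ratios within libraries had the same mean differences with the block, and an exact sign-flip test of 3 pairs cannot give a p below 0.25. Depth limits Me3, which stayed under the count filter.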

Other observations

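Carriers and enzymes around the cycle that belong to the other pathway list gave further values. Acly, ATP citrate lyase, which returns citrate to acetyl-CoA in the cytosol, was called lower, from 467, 518 and 470.3 CPM to 234, 190.1 and 212 CPM, with a log2 fold change of -1.19 (SE 0.08). Slc25a10, the dicarboxylate carrier, fell from 76.8, 132 and 79.2 CPM to 44.6, 35.4 and 37.9 CPM, and normoxic replicate 2 was again the highest sample. Slc25a22, a glutamate carrier, was the member of the carrier group with a positive log2 fold change, 0.42, within the fold threshold. The citrate carrier Slc25a1 had -0.55, with -0.63 and a call as lower without normoxic replicate 1 and -0.59 and the same call without normoxic replicate 3, and the oxoglutarate carrier Slc25a11 -0.48.

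Gpt and Gpt2, the alanine aminotransferases that exchange pyruvate with alanine, moved in opposite directions. Gpt, the cytosolic form, rose from 3.12, 5.24 and 3.81 CPM to 7.07, 6.83 and 6.25 CPM, and Gpt2, the mitochondrial form, fell from 33.9, 37.0 and 29.2 CPM to 19.7, 20.6 and 20.4 CPM. Their log2 fold changes were 0.72 (SE 0.18) and -0.72 (SE 0.09). Without normoxic replicate 1 Gpt stood at 0.56 and was not called. Adhfe1, which forms D-2-hydroxyglutarate, fell by 1.56 on the log2 scale, from 26.3 ± 5.76 to 8.88 ± 1.87 CPM (mean ± SD, n = 3 per group).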
